A study of Homo sapiens with 2 samples.

Results

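Chromosome 20 carried 276 of the 4201 regions at which an anti-Flag antibody enriched DNA from LN229 cells expressing tagged SOX4, 6.57% of the authors' list (exact Clopper-Pearson 95% interval 5.84 to 7.36%). LN229 is an established human glioblastoma cell line. The design text of the series names prostate cells, while the title and the sample labels name glioblastoma. One library came from cells transfected with a Flag-SOX4-HA plasmid and the other, the negative control, from cells transfected with GFP-Flag-HA, and each group had 1 library with no replicate. SOX4 was overexpressed from a plasmid, so the map is of a tagged, transfected factor and not of the SOX4 protein that the cells make themselves. A peak list was analysed for the SOX4 library only. Peaks of 1 library are not replicates, so every value below describes this library and no p-value is given.

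All regions on chromosome 20 were taken, whatever their score. A peak belonged to the short arm if its midpoint lay below 26.37 Mb of hg19 and to the long arm if it lay above 29.37 Mb, and the 3 Mb between these boundaries are the centromere gap. No midpoint fell in the gap. A window of 2 Mb on either side of the gap was described separately, and peaks outside the windows are called distal. The nearest distal peak of the short arm lay 2.14 Mb from the gap with a score of 78.95, and the outermost peak inside the window lay 1.72 Mb from it with a score of 51.35. For the long arm the outermost peak inside the window lay 0.594 Mb from the gap with a score of 55.33, and the nearest distal peak lay 2.21 Mb from it with a score of 51.9.

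SOX4 belongs to the SOX family of transcription factors, which bind the minor groove of DNA through an HMG box and bend it. The factor acts in embryonic development, and it is studied in glioblastoma for its part in keeping tumour cells stem-like. Chromatin immunoprecipitation with sequencing counts reads from DNA held by the antibody, and a peak caller reports stretches that hold more reads than a background predicts. Centromeres are built on long arrays of satellite repeats, and hg19 leaves most of these arrays out as gaps. The sequence on either side of such a gap is rich in satellites and duplicated segments. No hg19 sequence or annotation was used here, so no peak was assigned to a gene, a repeat or a motif.

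By score, most of the strong peaks of chromosome 20 stood beside the centromere gap, and the weak ones were spread along both arms. The score depends in part on width, as set out below. All 12 peaks scoring 1000 or more lay in the 2 windows (exact 95% interval of the share 73.5 to 100%). Of the 50 peaks scoring 100 to 1000, 36 lay there (72%, interval 57.5 to 83.8%). Among the 79 peaks scoring 60 to 100 the number was 15 (19.0%, 11.03 to 29.4%), and among the 135 scoring under 60 it was 19 (14.1%, 8.69 to 21.1%). In all, the windows held 82 peaks, 29.7% of those on the chromosome (24.4 to 35.5%). With peaks at most 5 kb apart joined into 1, the share was 15.8% (11.2 to 21.4%). The 82 peaks made up 58.5% of the 332.7 kb that peaks covered on chromosome 20, and the 5 peaks that scored exactly 3100 alone made up 17.5%. Those intervals cover counting error only and treat neighbouring peaks as independent, which they are not.

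**Figure D1:**
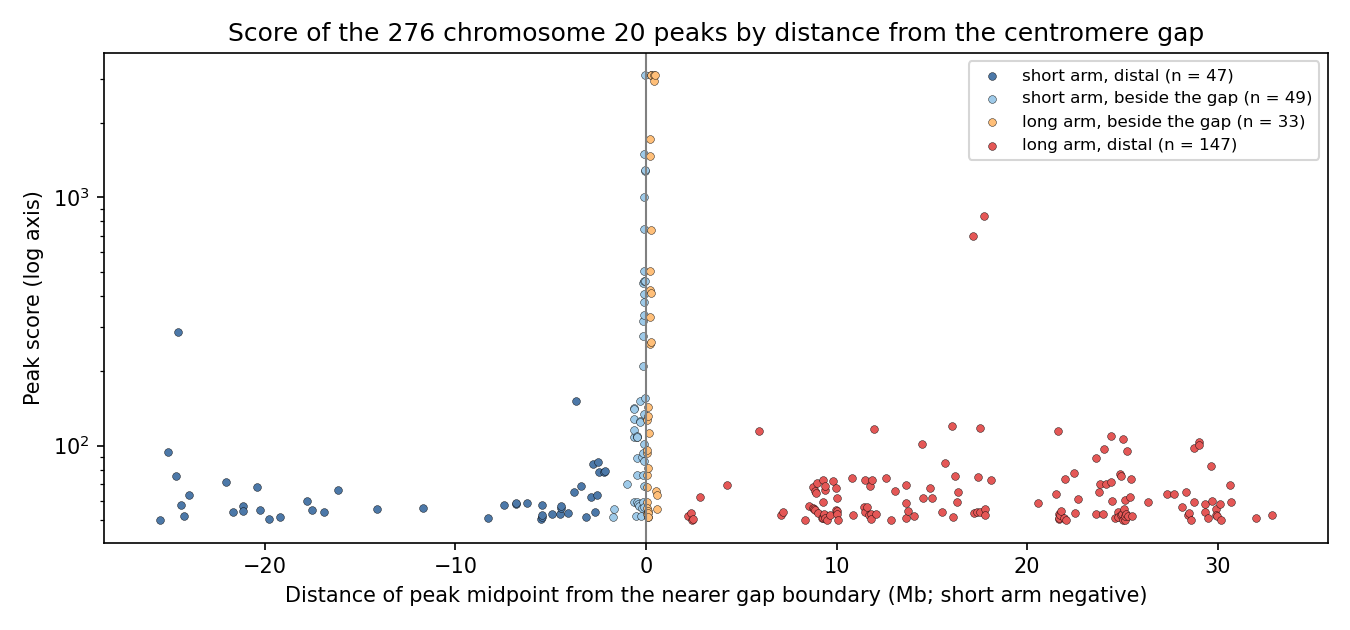
Score of each of the 276 peaks (vertical log axis) against the distance in Mb of its midpoint from the nearer boundary of the centromere gap (short arm negative), with points coloured by arm and window. The 12 peaks scoring 1000 or more stand at the gap, and 3 distal peaks (scores 286.06, 699.75 and 838.35) rise above the other distal peaks.

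The score could be read as a count of reads. In the list the score column has no header, but the weak peaks of chromosome 20 fell on separate lines, along each of which the score dropped as the peak grew wider. Such lines arise when a score is a function of a whole number and a width. A score of −10 log10 of the upper tail of a Poisson distribution, with a mean equal to 1 constant rate times the width of the peak, was therefore tried. The rate was fitted on peaks of the other chromosomes alone, and came to 0.00572821 per bp, or 5.73 per kb. With that rate, each of the 271 peaks of chromosome 20 scoring below 3100 matched a whole count, and the largest difference between the calculated and the deposited score was 0.00653. A count lower by 1 reduced the score by a median of 6.54. On the other chromosomes 3824 of 3827 peaks below 3100 matched within 0.02. The whole number is called the implied count below. It is the smallest value included in the tail, and if the caller left that value out of the tail each count is 1 lower.

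A single rate was enough for both arms and both windows, including peaks beside the gap that scored up to 2932.74. The scores of the 271 peaks were thus matched without any term for a background that varies with position. An example of such a term is the local read density of the GFP library. Whether that library was used to accept or reject peaks cannot be told from the scores. A score of 50, just below the lowest on chromosome 20 (50.01), is a tail of 1e-05 on this scale. At the constant rate a peak of 500 bp needs a count of 14 to reach it, one of 1000 bp needs 19 and one of 2000 bp needs 29. Implied counts ran from 13 to 458, with a median of 17 (quartiles 15 and 24). In 105 of the 271 peaks (38.7%, 32.9 to 44.8%) a count lower by 1 would have scored under 50. The 5 peaks scoring exactly 3100 matched no whole count, with differences of 1.22 to 4.18. In the whole list 100 peaks held exactly this score and 3 passed it. It was read as a stand-in for scores too high to compute, and on that reading the implied counts of these 5 peaks were at least 506 to 649, depending on width.

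Beside the gap, peaks were wide, close together and high in score. The short arm window held 49 peaks (24.5 per Mb) with a median width of 1054 bp (quartiles 715 and 2280 bp) and a median score of 115.2 (70.31 and 337.15). The long arm window held 33 peaks (16.5 per Mb) with a median width of 1366 bp (757 and 3195 bp) and a median score of 127.02 (63.09 and 503.55). The quartile ranges of width and score in the 2 windows overlapped widely. Scores of 100 or more were held by 61.2% of the peaks in the short arm window (46.2 to 74.8%) and by 54.5% in the long arm window (36.4 to 71.9%).

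The 5 peaks that scored 3100 were among the 6 widest of the chromosome. On the short arm the peak at chr20:26307847-26319485 spanned 11639 bp and was the last before the gap, ending 50.5 kb from the boundary. The first peak of the long arm began 54.9 kb from its boundary. Whether either margin holds sequence was not checked here, and distances and densities near the gap count both margins in full. On the long arm the widest was chr20:29622601-29638685, with 16085 bp. It was followed by chr20:29645045-29653839, with 8795 bp. After an interval of 150076 bp without a peak came chr20:29803916-29815805, with 11890 bp, and then chr20:29823746-29833414, with 9669 bp. By general knowledge of hg19 this interval holds a further unsequenced gap, whose ends were not located here. The 5 peaks were all in windows, and 4 of them lay on the long arm.

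The next 5 peaks by score were also beside the gap. The peak at chr20:29816279-29823732 lay between the last 2 named above, 13 bp before the second of them, and scored 2932.74 with an implied count of 458 over 7454 bp. Next came chr20:29596658-29605213 (score 1714.22, implied count 352) and chr20:29580613-29589697 (score 1471.93, implied count 332) on the long arm. Those of the short arm were chr20:26263607-26268811 (score 1499.05, implied count 264) and chr20:26304164-26307789 (score 1293.32, implied count 209). The 2 remaining peaks of 1000 or more, scoring 1276.06 and 1005.59, lay in the same stretch of the short arm.

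**Figure D2:**
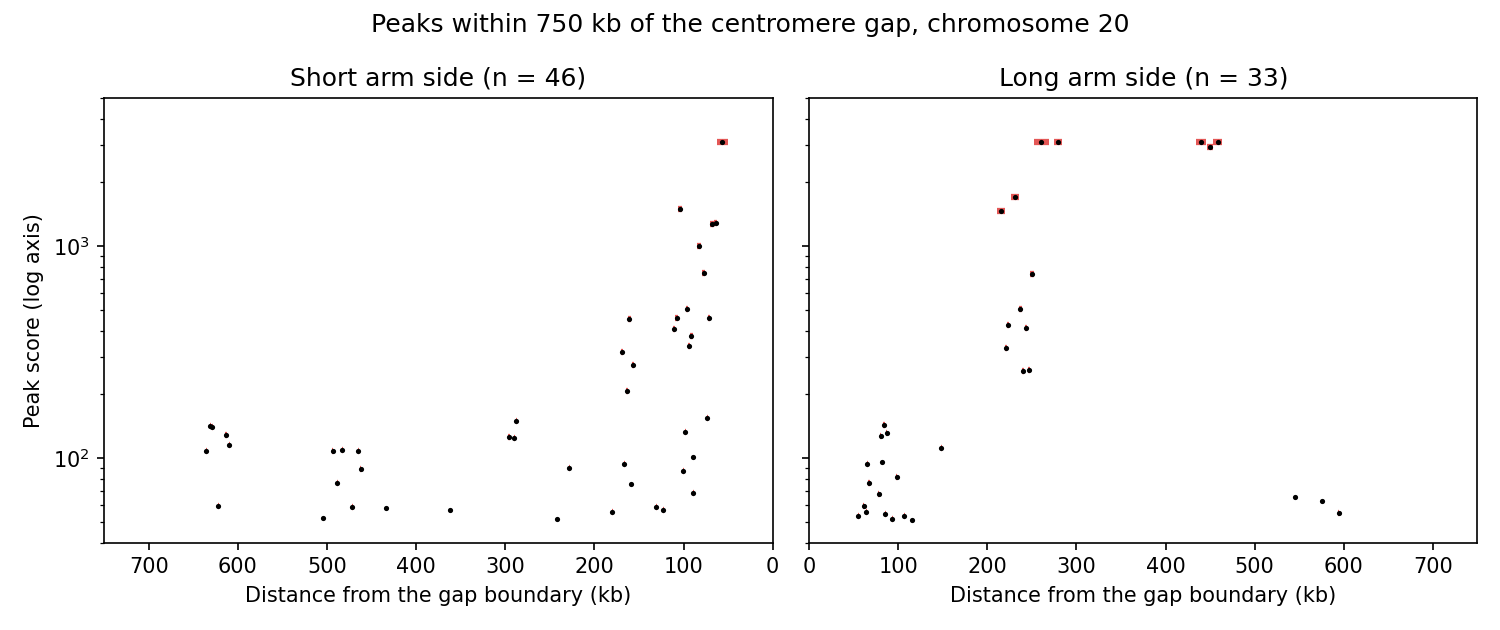
Peaks within 750 kb of the centromere gap, with the score on a vertical log axis and the distance from the gap boundary in kb, the short arm on the left and the long arm on the right. Points mark midpoints and horizontal bars the width of each peak. High scores lie within 200 kb of the boundary on the short arm and between 200 and 500 kb from it on the long arm.

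The 2 sides of the gap differed in where the strong peaks lay. The 13 peaks of the short arm within 100 kb of the boundary had a median score of 460.05, the 13 peaks at 100 to 200 kb had 208.61, and the 5 at 200 to 300 kb had 124.14. In this window no peak beyond 200 kb passed 150.61. On the long arm the 13 peaks within 100 kb had a median score of 76.49 and none passed 143.39. The 11 peaks at 200 to 300 kb had a median of 503.55 and a lowest score of 256.52. The next peaks, 3 at 400 to 500 kb scored 2932.74 or above, and the last 3 of the window, at 500 to 600 kb, scored 55.33 to 65.38. Spearman's correlation of distance and score was −0.60 over the 49 peaks of the short arm window and 0.51 over the 33 of the long arm window, as a description of neighbouring peaks of 1 library. The long arm then held no peak for 1.62 Mb, from 29964638 to 31583503.

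Many of the strong peaks were separated by very short intervals. In the windows 15 pairs of neighbours were at most 100 bp apart, 11 of them on the short arm, whereas the distal arms had 1 such pair. When peaks at most 5 kb apart were joined, the 49 peaks of the short arm window became 21 stretches and the 33 of the long arm window became 13. The widest joined stretch, chr20:26258662-26319485, took in 17 peaks and was covered by them over 86.9% of its 60824 bp. The next, chr20:29580613-29638685, took in 10 peaks and was covered over 88.3% of its 58073 bp. Another, chr20:29803916-29833414, took in 3 peaks and was covered over 98.4% of its 29499 bp. Distal peaks were hardly changed by joining, with 136 stretches from 147 peaks on the long arm and 45 from 47 on the short arm.

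The higher scores beside the gap went with width. Among peaks 600 to 800 bp wide, the 22 in the windows had a median score of 57.49 and the 105 distal ones 56.06, and both had a median implied count of 16. The 9 window peaks of 800 to 1000 bp had a median score of 93.75 and the 29 distal ones 72.8. At 1000 to 1500 bp the medians were 126.2 over 15 window peaks and 106.65 over 9 distal peaks. Of the 28 peaks of 2000 bp or more, 27 were in the windows. Spearman's correlation of width with score was 0.94 in each window, 0.71 among distal peaks of the long arm and 0.50 among those of the short arm. The tail of a wide peak shrinks with its total count even at the same excess per base, so this correlation is in part built into the score.

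The implied count divided by the count expected at the constant rate gives a fold that corrects for width. Over the 77 window peaks below 3100 the median was 4.71-fold (quartiles 4.39 and 6.09), and over the 194 distal peaks it was 4.33-fold (4.14 and 4.63). At 600 to 800 bp the medians were 4.22-fold in the windows and 4.22-fold among distal peaks. In the wider classes the windows were higher, with 4.68 against 4.33 at 800 to 1000 bp and 4.65 against 4.49 at 1000 to 1500 bp. The 22 window peaks of at least 2000 bp with a score below 3100 had a median of 6.63-fold (range 5.36 to 10.7), and the only distal peak of that width reached 10.7-fold. For the 5 at 3100 the lower bounds ran from 7.04-fold to 10.04-fold. Since a narrow peak needs a higher fold than a wide one to be called, low folds are missing from the list at every width. The fold is relative to 1 fixed rate and is not an enrichment over GFP.

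**Figure D3:**
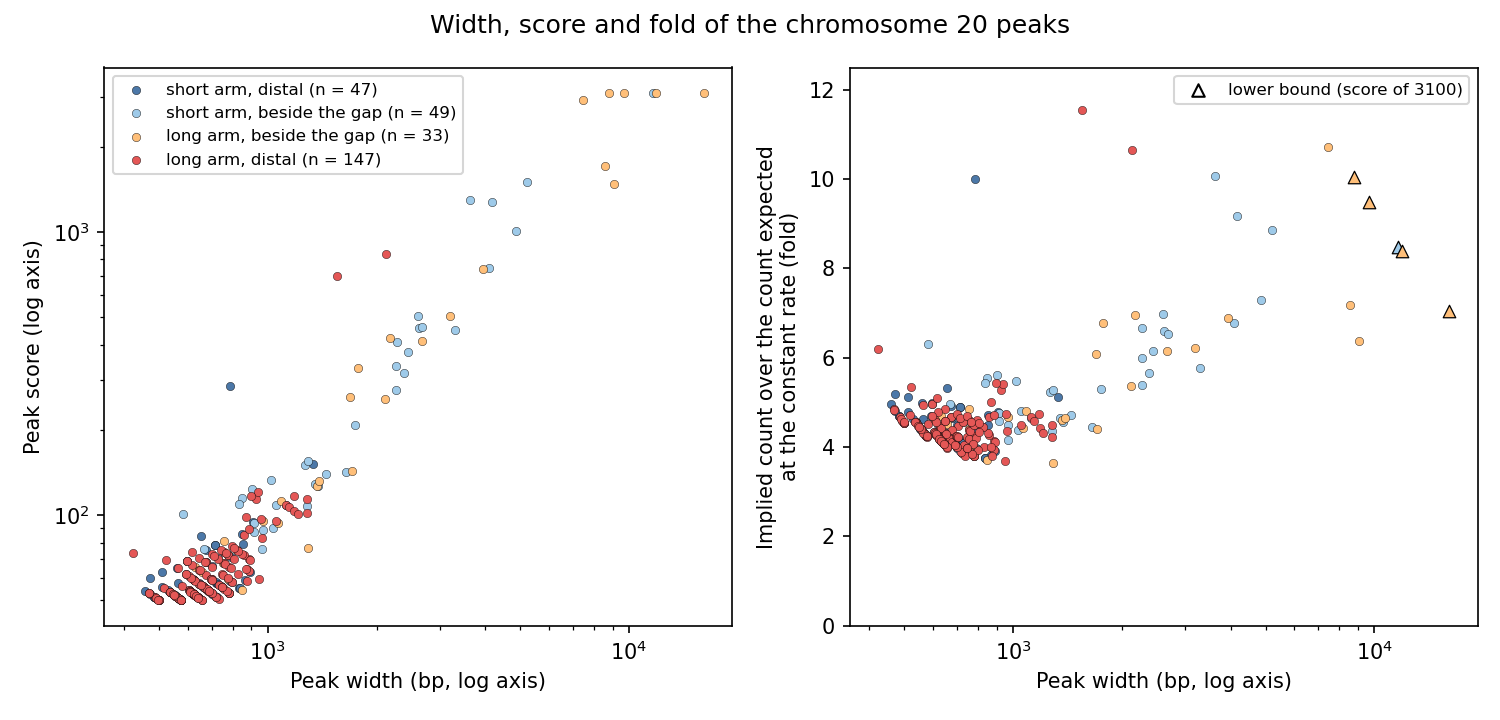
Left, score (log axis) against width in bp (log axis) for the 276 peaks. Right, fold of the implied count over the expected count against width, with triangles for the 5 peaks at 3100, which are lower bounds. Weak peaks fall on slanted lines, 1 for each whole count, and 3 distal peaks lie at 10.01-fold, 10.7-fold and 11.6-fold at widths of 785, 2130 and 1556 bp.

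Away from the gap, 3 peaks stood above the rest. The highest fold of any peak on the chromosome with an exact count was at chr20:46523279-46524834 on the long arm, with an implied count of 103 where 8.91 were expected (11.6-fold, score 699.75). On the same arm chr20:47131258-47133387 had an implied count of 130 where 12.2 were expected (10.7-fold, score 838.35). The short arm peak chr20:1820029-1820813 had 45 where 4.497 were expected (10.01-fold, score 286.06). With each count lower by 1 the folds were 11.4, 10.6 and 9.79. The next distal peak by fold, at chr20:51331482-51331904, reached 6.19-fold with an implied count of 15. It was the narrowest on the chromosome, at 423 bp, and was named after its values were seen.

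The same 3 peaks ranked high among peaks of like width in the whole list. The peak at 1.82 Mb ranked 8 by score among 1514 peaks within 20% of its width, whose median score was 63.06. The peak at 46.52 Mb ranked 13 of 487 (median 167.09) and that at 47.13 Mb ranked 15 of 331 (median 258.87). They were picked for their scores, which by itself favours high ranks. Their nearest neighbours scored 75.33, 53.55 and 55.41 and lay 99.46 kb, 39.05 kb and 33.01 kb away.

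The other distal peaks among the 5 highest by score on each arm were far lower. Those of the short arm were chr20:22686805-22688136 (score 151.14), chr20:1281999-1282908 (94.32), chr20:23874208-23875058 (86.09) and chr20:23605012-23605666 (84.46). Those of the long arm were chr20:45417135-45418071 (120.3), chr20:46920394-46921291 (117.18) and chr20:41335510-41336690 (116.91). Their folds ran from 4.72 to 5.44, above the upper quartile of distal peaks (4.63) and well under the 3 named above. The first peak of the chromosome, chr20:866256-866831, scored 50.09, and the last, chr20:62211123-62211671, scored 52.4.

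The long arm held more distal peaks per Mb than the short arm. It carried 147 over 30.8 Mb (4.77 per Mb, counted up to the last peak). The short arm carried 47 over 24.37 Mb (1.93 per Mb, counted from the start of the chromosome). The ratio was 2.47 (interval from the exact binomial interval 1.77 to 3.51). Leaving out the stretch beyond the last peak raises the density of the long arm and so the ratio. With the windows included, the counts were 180 and 96 and the ratio was 1.51 (1.17 to 1.95). Among peaks scoring 100 or more with the windows included, the ratio was 0.75 (0.44 to 1.28), an interval that spans 1. Among distal peaks it was 2.27 (1.48 to 3.56) for scores under 60 and 2.58 (1.42 to 4.96) for scores of 60 to 100. For distal scores of 100 or more it was 4.74 (1.06 to 43.6), from only 2 peaks on the short arm and 12 on the long arm. With each chain of peaks at most 100 kb apart counted once, the ratio of distal densities was 1.46 (0.95 to 2.29), an interval that also spans 1.

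Distal peaks of the 2 arms had nearly the same median width and score. The median width was 673 bp on the short arm (quartiles 562.5 and 743 bp) and 672 bp on the long arm (613 and 780.5 bp). Their median scores were 57.48 (53.63 and 67.03) and 56.8 (52.63 and 69.5), and both had a median implied count of 16. In 44.7% of the distal peaks of the short arm (30.2 to 59.9%) and in 48.98% of those of the long arm (40.7 to 57.3%), a count lower by 1 would have scored under 50. In the short arm window that share was 10.4% of 48 peaks (3.47 to 22.7%) and in the long arm window 24.1% of 29 (10.3 to 43.5%). A large part of the distal map thus lay within 1 count of the threshold.

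**Figure D4:**
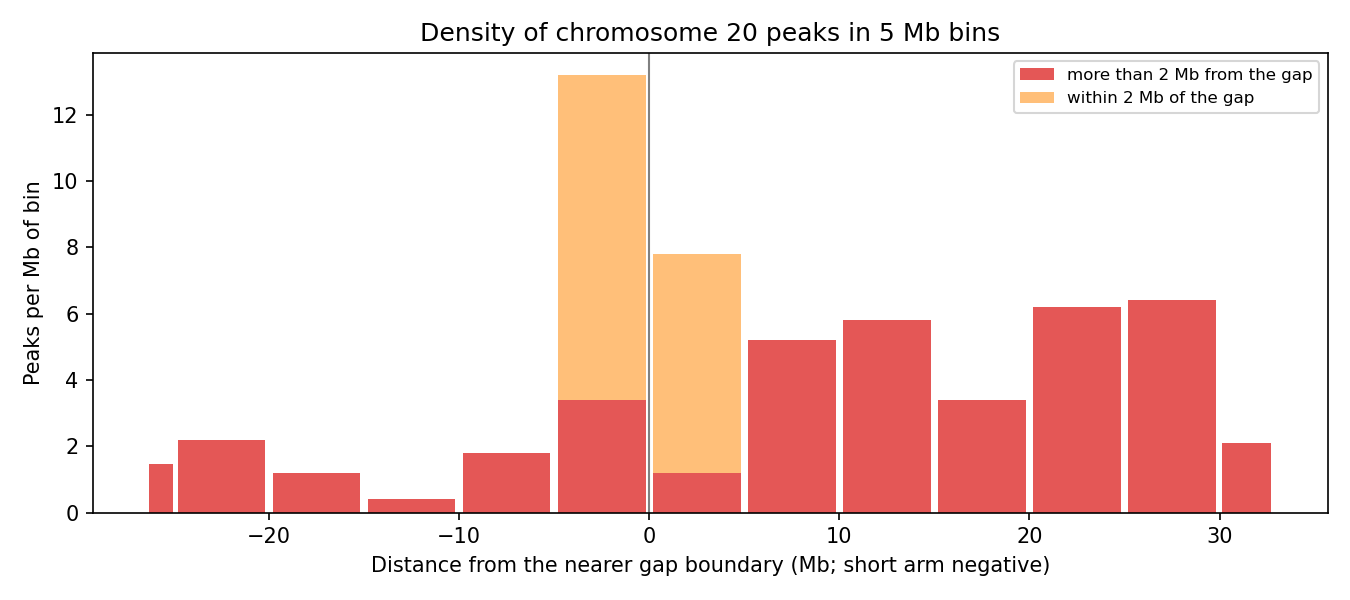
Peaks per Mb in 5 Mb bins by distance from the nearer gap boundary (short arm negative), split into peaks within 2 Mb of the gap and peaks farther away. Heights are per Mb of the whole bin, the window included, and the outermost bin of each arm is shorter. The short arm falls to 0.4 per Mb at 10 to 15 Mb from the gap, while the long arm stays between 2.11 and 7.8 per Mb.

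Density changed along each arm. The short arm had 17 distal peaks in the 3 Mb between its window and 5 Mb from the gap, 9 at 5 to 10 Mb, 2 at 10 to 15 Mb, 6 at 15 to 20 Mb and 11 at 20 to 25 Mb. The longest stretch without a peak, 3.42 Mb from 14677487 to 18100970, was here, and it was preceded by stretches of 2.40 Mb and 2.05 Mb separated by single peaks. On the long arm 6 distal peaks lay in the same 3 Mb. There were, in full bins of 5 Mb, 26 at 5 to 10 Mb, 29 at 10 to 15 Mb, 17 at 15 to 20 Mb, 31 at 20 to 25 Mb and 32 at 25 to 30 Mb. The longest stretch without a peak on the long arm was 2.46 Mb, from 47454775 to 49915130. Median scores of these bins stayed between 55.65 and 64.85 from 5 Mb to 30 Mb on the long arm, so bins with many peaks did not have stronger ones.

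Spacing differed between the distal arms and was nearly the same in both windows. Midpoints of neighbours were a median of 4.87 kb apart in the short arm window (quartiles 2.62 and 11.4 kb) and 5.93 kb in the long arm window (2.62 and 10.5 kb). Distal neighbours were a median of 71.5 kb apart on the long arm (32.8 and 185.2 kb) and 270.1 kb on the short arm (86.5 and 578.1 kb). For whole arms the medians were 46.04 kb on the short arm and 57.5 kb on the long arm, in the opposite order. The short arm window holds 49 of the 96 peaks of its arm and the long arm window 33 of 180. On the short arm 26 of the 34 distal chains were single peaks and the largest had 4. On the long arm 30 of 63 were single, and 16 chains of 3 or more took in 83 of the 147 peaks.

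**Figure D5:**
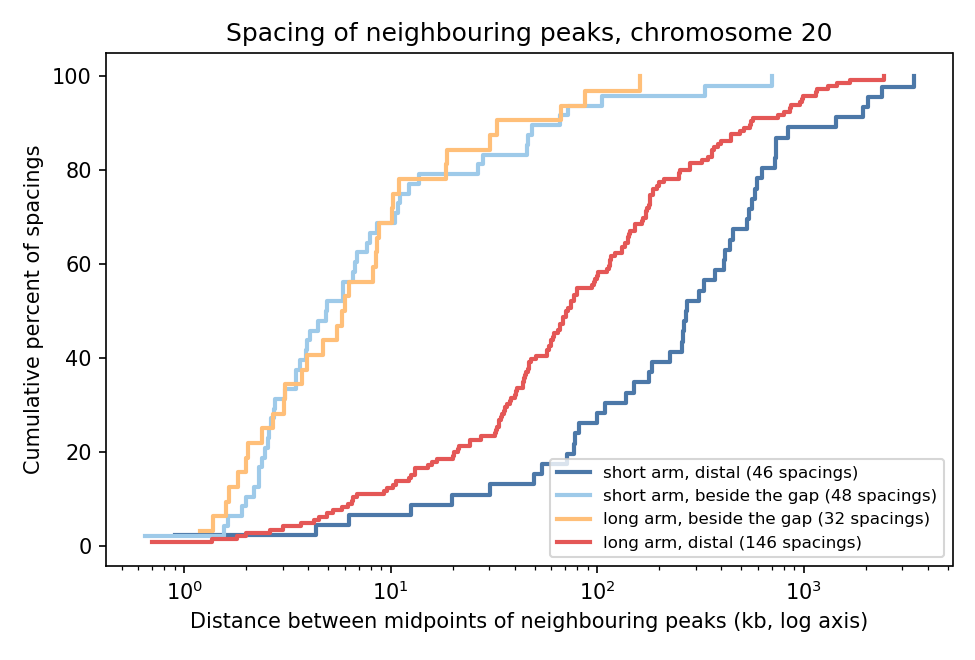
Cumulative percent of distances between midpoints of neighbouring peaks (kb, log axis) in the 4 stretches. Curves of both windows lie together at short distances (medians 4.87 and 5.93 kb), the distal long arm lies to their right (71.5 kb) and the distal short arm farthest right (270.1 kb).

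Chains of 10 or more peaks at most 100 kb apart numbered 3 on the chromosome, and they were of different kinds. The chain chr20:25865348-26319485 on the short arm held 40 peaks with a median score of 125.17, covered 17.5% of its span and contained the 3100 peak nearest to the gap. The chain chr20:29424867-29653839 on the long arm held 27 peaks with a median score of 127.02 and covered 33.01% of its span. The last of them, chr20:54145131-54666716, lay far out on the long arm and held 15 peaks with a median score of 53.04. These covered 2.04% of its span, and 10 of them scored under 60. Its strongest peak, chr20:54408243-54409387, scored 106.65. Smaller chains of the same weak kind, named after their values were seen, were chr20:38117553-38391147 and chr20:38590152-38765164, with 8 peaks each and highest scores of 70.82 and 72.48. The 1 Mb bins from 38 to 39 Mb and from 54 to 55 Mb were the fullest of the distal long arm, with 17 and 18 peaks. The median was 3 over the 31 bins that start at 32 Mb or beyond.

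Set beside the rest of the list, chromosome 20 lay near chromosome 7. This held for the median score and for the shares scoring under 60 and 100 or more. Its share scoring 1000 or more lay between chromosome 7 and the others, with an interval that overlapped both. The median score was 61.4 on chromosome 20, 59.7 over the 784 peaks of chromosome 7 and 92.6 over the 3141 peaks elsewhere. Scores under 60 made up 48.9% (42.9 to 54.98%), 51.1% (47.6 to 54.7%) and 26.2% (24.7 to 27.8%). Peaks at which a count lower by 1 would have scored under 50 were 38.7% (32.9 to 44.8%), 39.02% (35.6 to 42.6%) and 20.1% (18.7 to 21.5%) of those with an implied count. Scores of 100 or more made up 22.5% on chromosome 20 (17.7 to 27.9%), 18.75% on chromosome 7 (16.1 to 21.7%) and 46.5% elsewhere (44.7 to 48.2%). For scores of 1000 or more the shares were 4.35% on chromosome 20 (2.27 to 7.47%), 1.53% on chromosome 7 (0.793 to 2.66%) and 6.72% elsewhere (5.87 to 7.65%). With chains of 10 or more peaks left out of all 3 sets, the share under 60 was 56.7% on chromosome 20 (49.4 to 63.8%), 65.3% on chromosome 7 (60.8 to 69.7%) and 50.6% elsewhere (47.4 to 53.8%), and the median scores were 58.5, 56.5 and 59.8. On both of these measures chromosome 20 lay between the other sets, but its interval for the share overlapped both of theirs. The share scoring 100 or more was then 10.8% on chromosome 20 (6.83 to 16.07%), 5.08% on chromosome 7 (3.25 to 7.52%) and 19.6% elsewhere (17.2 to 22.2%). Here too chromosome 20 lay between, and its interval overlapped that of chromosome 7 but not that of the others. Leaving out chains cut the sets unequally, to 194 of 276 peaks on chromosome 20, 453 of 784 on chromosome 7 and 994 of 3141 elsewhere. No test was made between chromosomes, since all peaks came from 1 library.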

How the data were processed

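The data were a peak list of 1 SOX4 library, from chromatin immunoprecipitation with anti-Flag antibody, per the labels' protocols. The submitters' processing notes name Bowtie 0.12.7, MACS and hg19. The version and settings of MACS, and the role of the GFP library in peak calling, are not given in the sources here. The score in the fifth column was deposited by the authors without a header. Total read depth is unknown.

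Positions are hg19, counted from 1. Peaks of chromosome 20 were split by midpoint, with the boundaries given in the report. The long arm was measured up to its last peak and the short arm from the start of the chromosome. Spacing is the distance between midpoints of neighbours, and chains join peaks with at most 100 kb between their edges.

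The Poisson rate was fitted on 60 peaks scoring under 75 and refined on 304 peaks scoring 500 or more, none on chromosome 20. On the 60 peaks, before the refinement, the best rate gave a median residual of 0.00232 on the score scale. Among rates scanned from 0.002 to 0.02 per bp, those over 1% away gave at least 0.396. The fit was tested on simulated data. It was chosen after the data were seen. Implied counts are inferred from the scores.

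Peaks named in the text are the 10 highest by score (ties by width), the 5 highest distal peaks of each arm, the highest peak of each chain of 10 or more, and the first and last peak. Members and measures were chosen with earlier results of these data known. Alternatives were score minimums, joining at 5 kb, windows of 1 and 5 Mb, and leaving out the windows or the long chains. Software was SciPy 1.17.1, NumPy 2.4.6 and pandas 2.3.3 under Python 3.11.15, with matplotlib 3.10.9 for plots.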

Additional observations from a re-analysis of the deposited data

How the results depend on the processing

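No paired analysis was possible because neither group had a replicate. Alternatives for implied counts were chosen after seeing the data. The excess of peaks on the long arm reversed to a ratio of 0.80 at or above the median score of the list and 0.75 at 100 or more, with intervals that span 1. It was 2.47 without peaks within 2 Mb of the gap and 1.98 without chains of 10 or more. Of the 276 peaks, 78 reached the list median in score and 62 reached 100. The share within 2 Mb of the gap was 70.5% and 77.4% under these 2 minimums, 15.8% after joining, and 38.04% in a window of 5 Mb. At or above the median score, the short and the long arm had median widths of 1351 and 1283 bp and median scores of 150.61 and 120.3. At 100 or more the widths were 1699.5 bp in both arms and the scores 242.5 and 258.6. The short arm's median spacing was 4.01 kb and 4.46 kb under these minimums, 178.5 kb after joining, 270.1 kb without the windows and 262.8 kb without long chains. The long arm's was 18.8 kb at 100 or more, 76.2 kb after joining and 77.2 kb without long chains. The short arm's median width was 673 bp without the windows and 687.5 bp without long chains, and its median score 57.48 and 57.84, or 58.39 after joining. The correlation of width and score was 0.89 and 0.90 under the minimums, 0.73 after joining, 0.66 without the windows and 0.69 without long chains. The median fold at or above the median score and at 100 or more was 5.52 and 5.77 in the windows and 4.73 and 4.92 among distal peaks, and the distal median was 4.08 with counts lower by 1. A minimum on score removes weak and narrow peaks by construction, and leaving out the windows removes all peaks scoring 1000 or more. Other causes of these shifts were not tested. At the constant rate a stretch of 1000 bp needed a count of 19 to score 50. Depth and any use of the GFP library to reject peaks are unknown, so no limit on binding can be given for stretches without peaks.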
